A study of Canis lupus familiaris with 24 samples.

Results

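Canine B-cell lymphoma nodes were examined for 8 genes through which helper T lymphocytes speak to B cells and to other blood cells: the cytokine genes IL21, IL2, IL4, IL10, IFNG, IL6 and IL3, and CD40LG, the gene of CD40 ligand. The members were chosen by name, and every probe whose RefSeq identifier belongs to 1 of the 8 dog genes was taken. All 8 genes were on the array, with 19 of its 43603 probes. Of these genes, 7 had a probe that cleared background on every array of some dog in some phase and were tested among 27720 genes or unnamed transcripts. IL4 had no such probe and is described by its spots alone.

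CD40 ligand sits on activated helper T cells and binds CD40 on B cells, and it drives B cell survival, class switching and the germinal centre reaction. IL-21, IL-4, IL-2 and IL-10 add to that help, interferon gamma (IFNG) activates macrophages and switches on antiviral and chemokine genes, IL-6 is made by stroma and macrophages as well as by lymphocytes, and IL-3 is a growth factor of mast cells, basophils and early blood cells. In a normal lymph node follicular helper T cells supply IL-21 and CD40 ligand to germinal centre B cells.

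The aspirates came from peripheral lymph nodes of 4 pet dogs, each sampled in a drug-sensitive and in a drug-resistant phase of its lymphoma. Dog 1 was a male Shih Tzu of 10 years, dog 2 a male Doberman of 9 years, dog 3 a castrated male French Bulldog of 3 years and dog 4 a spayed female French Bulldog of 5 years. The labels name the drug response of each phase but no drug, dose or interval, and hold no healthy or untreated dog. There were 3 one-colour arrays for each dog in each phase (24 in total). Whether these 3 are separate aspirates is not stated, so a within-dog p-value reflects only array-to-array spread, which may be technical.

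The share of spots well above background ran from 71.0% to 80.9% per array, highest on an array of dog 2 in the sensitive phase. The 75th percentile of signal, to which each array was scaled, lay between 676 and 1118 intensity units. The array names few B cell markers: of 7 listed, it holds MS4A1, the gene of the B cell antigen CD20, which was well above background on all 24 arrays at a log2 level of 3.37 to 4.34 above the 75th percentile and changed by -0.29, 0.16, 0.21 and -0.28 in dogs 1 to 4. The arrays lay on 7 slides. The 3 resistant arrays of dog 4 were alone on their slide and alone on the second scan day, so for dog 4 the phase, the slide and the scan day cannot be told apart.

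The 19 probes fell into a few kinds of behaviour. Throughout, above background stands for well above background by the flag of the scanner output. IL10 and 1 of the 2 CD40LG probes were well above background on all 24 arrays, as were 61.4% of all probes. In contrast, 4 of the 19 were not well above background on any array, against 9.63% of all probes. A further 6 of the 19 were above it on scattered arrays without ever filling a group of 3, against 11.1% of all probes. IFNG and the dimmer IL21 probe were above background on the 3 sensitive arrays of dog 2 and on 0 of the other 21 arrays, a pattern shared by 108 probes of the array (0.248%). The brighter IL3 probe did the same for the 3 resistant arrays of dog 4, with 65 probes in all (0.149%).

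**Figure D1:**
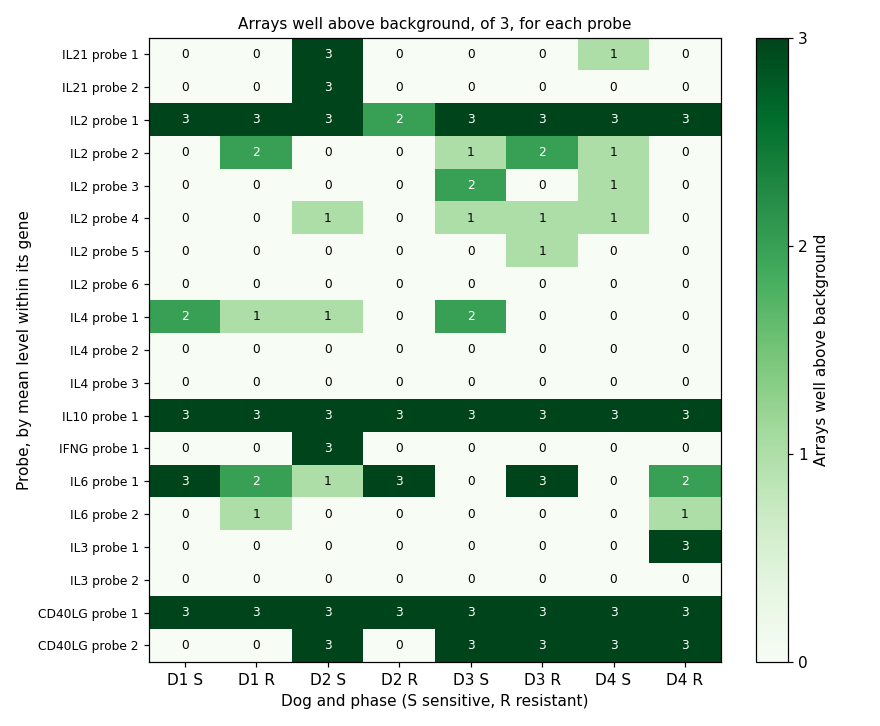
Number of arrays, of 3, on which each of the 19 probes was well above background, by dog and phase (columns; S sensitive, R resistant); probes are ordered within a gene by their mean level. IL10 and CD40LG probe 1 fill every column, IL21 and IFNG fill the column of dog 2 in the sensitive phase, and IL3 probe 1 fills that of dog 4 in the resistant phase.

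Within each dog a gene was called when limma's adjusted p was under 0.05 and the change at least 2-fold. In dog 1, 0 of the 7 tested members were called in either direction, against 8.1% of all tested genes called lower and 3.83% called higher. In dog 2, IL21, IFNG and CD40LG fell (3 of 7, against 9.84% of all genes) and IL6 rose (1 of 7, against 3.98%). In dog 3, CD40LG fell (1 of 7, against 5.39%) and IL6 rose (1 of 7, against 1.36%). In dog 4, 0 of 7 fell (against 1.5%) and IL3 rose (1 of 7, against 4.06%). IL21, IFNG and IL3 entered the test only through the 1 group in which they were bright, so these counts are a description and not support for a change of the members as a set. The arrays of the 2 phases did not overlap for 3 members lower and 2 higher in dog 1 (against 33.5% and 28.8% of all genes), 4 and 1 in dog 2 (26.5% and 42.2%), 3 and 1 in dog 3 (25.9% and 29.4%) and 1 and 2 in dog 4 (23.7% and 32.7%), so arrays that do not overlap were common on the whole array. The median change of the 7 was -0.38, -0.59, -0.36 and 0.24 on the log2 scale in dogs 1 to 4, beside -0.06, 0.11, 0.03 and 0.07 for all tested genes. The middle gene was IFNG in dogs 1 and 4 and IL21 in dog 3, not well above background on any array there. In dog 2 it was IL2, without a call. The medians in dogs 1, 3 and 4 thus rest on background signal.

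**Figure D2:**
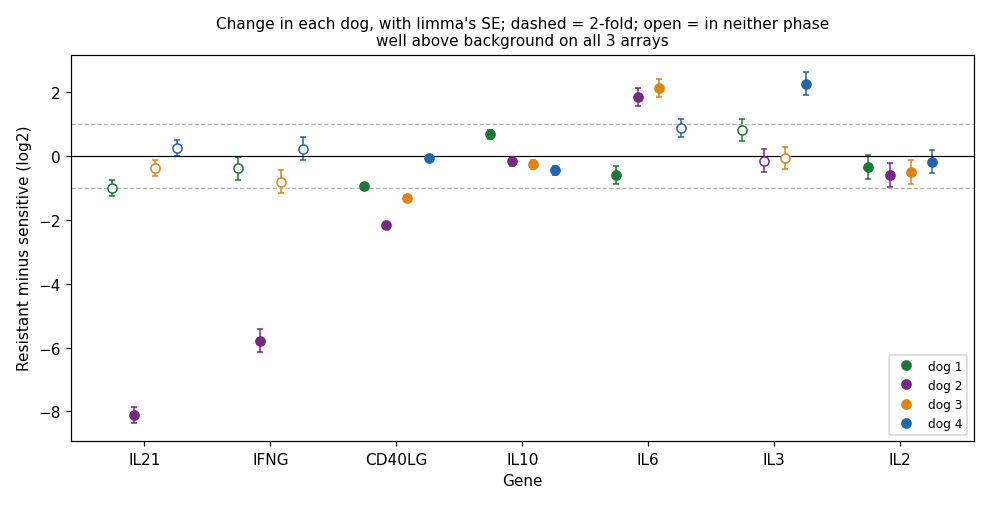
Change from the sensitive to the resistant phase (log2, resistant minus sensitive) for each tested member and dog, with limma's standard error; dashed lines mark 2-fold and open points are genes not well above background on all 3 arrays of either phase. IL21 (-8.12) and IFNG (-5.78) stand far below the rest in dog 2, and CD40LG lies below 0 in dogs 1 to 3 and at -0.06 in dog 4.

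CD40LG, the contact signal of T cell help, was well above background on all 24 arrays by 1 probe, as was IL10. It was lower in the resistant phase of dogs 1, 2 and 3, CD40LG being meant. In dog 2 its brighter probe read 195, 193 and 197 intensity units on the sensitive and 39.3, 41.3 and 34.6 on the resistant arrays. The phases did not overlap, and the fall was 4.48-fold (log2 change -2.16, SE 0.11; adjusted p = 4.72e-12). In dog 3 it read 486, 484 and 515 and then 211, 223 and 212, again without overlap, a fall of 2.49-fold (-1.32, SE 0.11; adjusted p = 1.33e-08).

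Dog 1 had the lowest sensitive level of CD40LG, at 49.2, 50.3 and 50.9, and read 25.9, 26.0 and 37.4 in the resistant phase. The third resistant array lay nearer to the sensitive ones than the other two did. The change of -0.94 (SE 0.11; adjusted p = 8.08e-07) was 1.92-fold and so short of the 2-fold threshold. It passed at -1.13 without resistant array 3, and at -1.11 with the slide as a block. Over all alternatives the change in dog 1 ranged from -1.13 to -0.27. In dog 4 the gene read 162, 173 and 185 and then 165, 146 and 145, with overlapping phases and a change of -0.06 (SE 0.11; adjusted p = 0.716).

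A second, dimmer CD40LG probe was above background in both phases in dogs 3 and 4 alone. In dog 3 it read 31.4, 31.6 and 37.6 in the sensitive and 16.3, 15.9 and 16.5 in the resistant phase, a change of -1.16. In dog 2 it fell from 12.8, 12.8 and 13.4 to 2.60, 2.30 and 2.64, the latter not well above background. This bounds the fall at only 1.01-fold or more because the sensitive signal itself was near background. In dog 4 its change was 0.29, against -0.06 for the brighter probe, and in dog 1 it was not above background on any array.

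The dogs differed more among themselves in CD40LG than 1 dog did between phases. The 8 group means spanned 4.24 on the log2 scale, from -0.68 in the sensitive phase of dog 3 to -4.92 in the resistant phase of dog 1. Between these ends lay dog 3 resistant (-2.00), dog 4 sensitive (-2.15), dog 4 resistant (-2.20), dog 2 sensitive (-2.46), dog 1 sensitive (-3.99) and dog 2 resistant (-4.63). Of the neighbours in that order, 2 pairs had overlapping arrays, the 2 phases of dog 4 and the resistant phases of dogs 2 and 1. The resistant nodes of dog 3 thus held more CD40LG signal than the sensitive nodes of the other dogs.

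**Figure D3:**
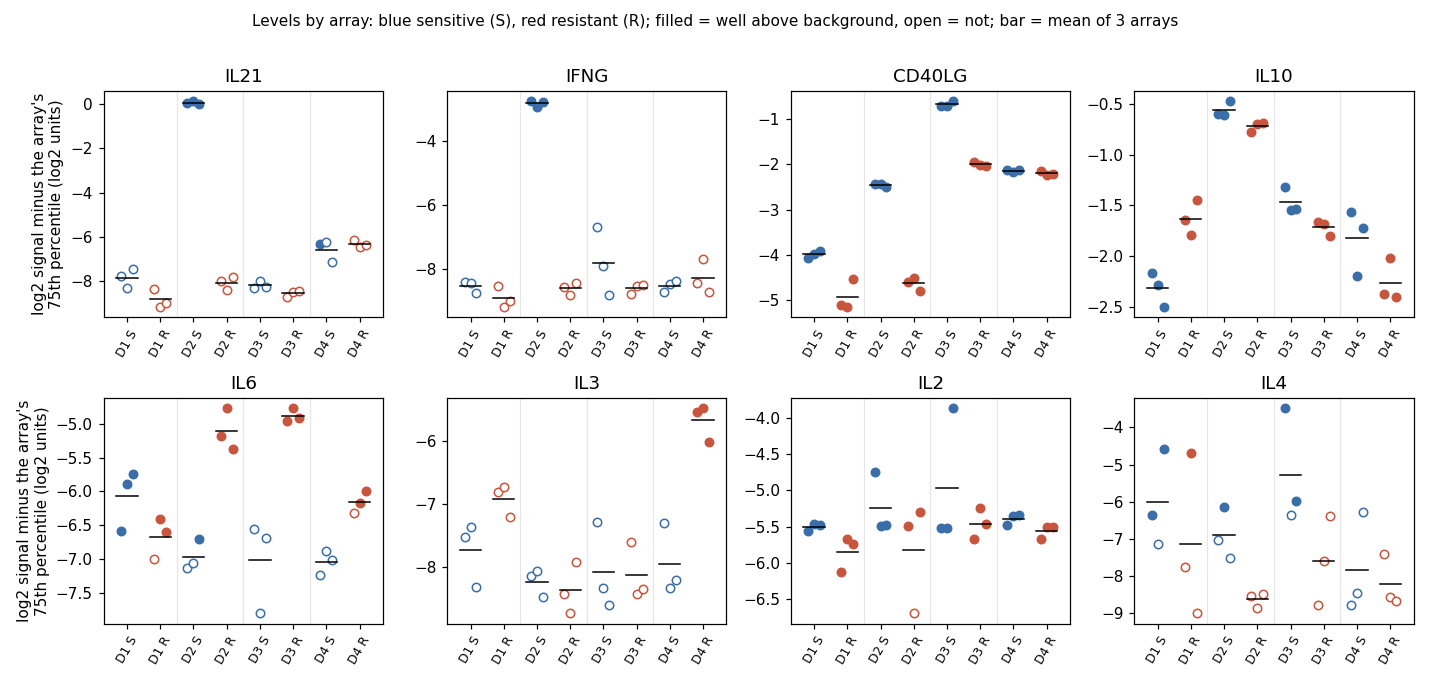
Level of each member on every array, as log2 signal minus the array's 75th percentile, by dog (D1 to D4) and phase (S, R); filled points are well above background, open points are not, and bars are means of 3 arrays. CD40LG and IL10 are filled throughout, all 3 points of IL21 and IFNG are filled in dog 2 sensitive and in no other group, and IL2 and IL4 show single points far from the others of their group. The vertical scale differs between genes.

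IL21, the cytokine of follicular helper T cells that drives B cells towards plasma cells, was bright in a single group. Its brighter probe read 1091, 1126 and 1100.3 intensity units on the sensitive arrays of dog 2 and 3.68, 2.75 and 4.20 on its resistant arrays. The sensitive level lay at the 75th percentile of the array (0.04 on the log2 scale, SD 0.07, n = 3), while the resistant signal was not well above background on any array. The gene was at least 85.6-fold lower in the resistant phase by the background bound (fitted change -8.12, SE 0.25; adjusted p = 3.08e-15). IL21 entered the test only through these sensitive arrays, so its fall was largely fixed by the filter and the p-value is a description.

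The second IL21 probe gave the same direction in dog 2, with 249, 261 and 299 on the sensitive and 2.61, 2.24 and 2.75 on the resistant arrays, at least 20.8-fold lower. In dogs 1 and 3 the brighter probe read between 1.60 and 4.28 in both phases and was not above background on any array. In dog 4 it read 8.75, 10.2 and 5.71 and then 10.4, 7.79 and 8.14, above background on 1 sensitive array, with overlapping phases. No fold is given for dogs 1, 3 and 4.

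IFNG, the main macrophage-activating cytokine of T helper 1 cells, cytotoxic T cells and NK cells, followed the same course. In dog 2 it read 156, 137 and 162 on the sensitive and 2.50, 2.10 and 2.73 on the resistant arrays. It was at least 11.7-fold lower in the resistant phase (fitted change -5.78, SE 0.36; adjusted p = 1.12e-10). IFNG too entered the test only through the sensitive arrays of dog 2, so its fall was largely fixed by the filter. On the other 18 arrays it was not well above background, with a highest reading of 7.70 on sensitive array 1 of dog 3. The fitted sizes for IL21 and IFNG depend on how background is treated: with normexp correction they were -3.76 and -1.43, and on the authors' raw median signals -4.75 and -2.24, with both calls kept.

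Within the slide that held both phases of dog 2, 1 sensitive against 3 resistant arrays, the changes were -8.06 for IL21, -5.82 for IFNG and -2.12 for CD40LG. The corresponding CD40LG changes within a slide were -1.11 in dog 1 and -1.26 in dog 3, each with 3 sensitive and 1 resistant array. Over all slides the CD40LG changes were -0.94, -2.16 and -1.32 in dogs 1 to 3, the first short of 2-fold. Those of IL21 and IFNG in dog 2 were -8.12 and -5.78.

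Markers of T cells, and of other cell types, moved in the same dogs. Of 13 T cell markers listed, 5 were on the array under a name: CD4 and CD8A, the coreceptors of helper and cytotoxic T cells, CD28 and ICOS, which costimulate T cells, and CTLA4, which restrains them. In dog 2 all 5 fell, with CD28 at least 29.6-fold lower, ICOS at least 11.0-fold lower, CD8A at -4.84, CTLA4 at -4.66 and CD4 at -1.39, and their median change was -4.84. The summed level of the 5 there dropped from 441 to 465% of the 75th percentile on the sensitive arrays to between 27.3 and 28.4% on the resistant arrays, where CD28 and ICOS were not above background. The bulk arrays cannot tell apart fewer T cells and less RNA per T cell, and the part of T cell content in the falls of IL21, IFNG and CD40LG was not tested.

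The other dogs showed smaller shifts of the same markers. In dog 1, CTLA4 (at least 10.2-fold lower), CD28 (-1.19) and ICOS (-1.17, with 1 of 3 sensitive and 0 of 3 resistant arrays above background) fell, with a summed level of 39.4 to 45.9% and then 24.8 to 27.5%. In dog 3, CD28 (-1.52), ICOS (at least 2.27-fold lower) and CTLA4 (-1.28) fell, with 48.2 to 52.7% and then 31.5 to 42.9%. In dog 4, 0 of 5 were called, and the summed level was 35.0 to 41.5% and then 50.2 to 53.7%, while CD40LG changed by -0.06. CD4 itself changed by -0.32 in dog 1, 0.14 in dog 3 and 0.79 in dog 4, with no call in these dogs. KLRD1, an NK and cytotoxic T cell receptor gene and the single named marker of that list, fell in dogs 1 to 3 (-1.56, -6.42 and -1.48) and changed by -0.03 in dog 4.

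Stromal and neutrophil markers moved as well. Of 6 stromal and endothelial markers tested, 3, 4, 4 and 1 fell in dogs 1 to 4 and 0 rose. Among them COL1A2, a fibrillar collagen gene, changed by -3.13, -1.57, -1.39 and -0.55, the last without a call, and CXCL12, a stromal chemokine gene, fell in all 4 dogs (-2.77, -1.77, -1.88 and -1.69). The matrix proteoglycan gene DCN changed by -2.49 in dog 1 and -3.74 in dog 3 (both called), by at least 1.88-fold downwards in dog 2, and by 0.12 in dog 4 without a call. The summed level of the 6 was 435 to 443% and then 235 to 238% of the 75th percentile in dog 1, 902 to 925% and then 458 to 493% in dog 2, 1337 to 1399.9% and then 607 to 638% in dog 3, and 703 to 736% and then 610.1 to 628% in dog 4.

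Neutrophil markers went in different directions. CAMP, the gene of the granule peptide cathelicidin, fell by 5.46 on the log2 scale in dog 1, rose by 4.49 in dog 2, fell by 5.41 in dog 3 and changed by -0.38 in dog 4 without a call. Of the 3 neutrophil markers tested, 3 fell in dog 1, 2 rose in dog 2, 2 fell in dog 3 and 0 were called in dog 4. The part of stromal and neutrophil content in the members' values was not tested.

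**Figure D4:**
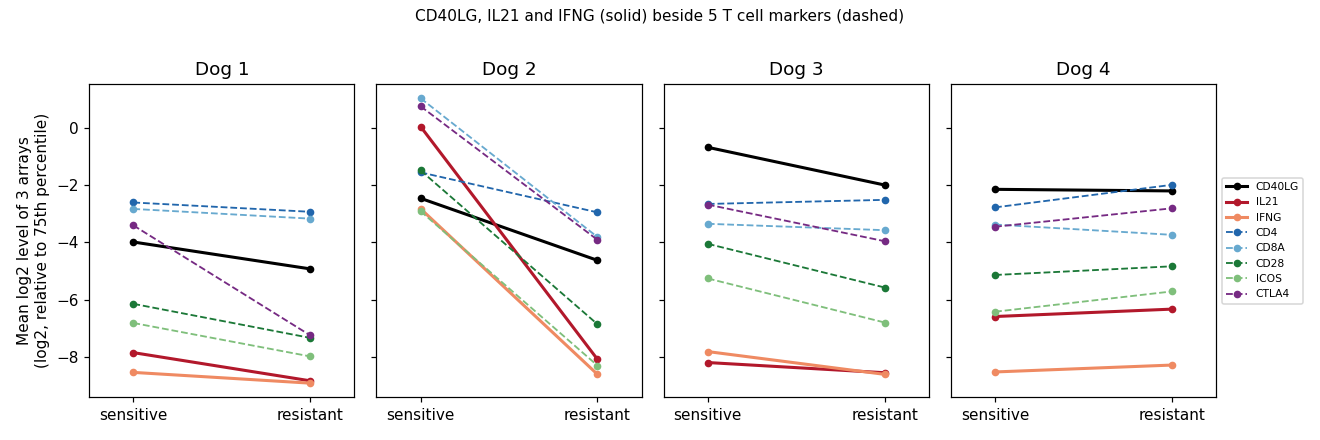
Mean log2 level of 3 arrays, relative to the 75th percentile, in the sensitive and resistant phase of each dog, for CD40LG, IL21 and IFNG (solid lines) and 5 T cell markers (dashed lines). In dog 2 every line falls, CD4 least, and in dog 4 CD40LG stays level (-2.15 and -2.20) while CD4 goes from -2.78 to -1.99.

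IL10, a cytokine of regulatory T cells, macrophages and some B cells that damps inflammation and supports B cell growth, was present everywhere and changed little. Dog 2 had the highest level, with 704, 681 and 803 intensity units on the sensitive and 553, 577 and 589 on the resistant arrays. After scaling the change in dog 2 was -0.16 (SE 0.14; adjusted p = 0.335). The sensitive and resistant phases of dog 2 stood first and second in the order of levels, at -0.56 and -0.72, with no array of another dog among them.

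In dog 1, IL10 read 184, 163 and 135 and then 283, 264 and 317. All resistant arrays lay above all sensitive ones, and the change of 0.69 (SE 0.14; adjusted p = 0.000382) was 1.61-fold, under the threshold of 2-fold. In dog 3 the arrays read 319, 272 and 273 and then 256, 280.2 and 249.7 (change -0.25; adjusted p = 0.160), and in dog 4 they read 241, 171 and 247 and then 142, 169.7 and 128 (change -0.44; adjusted p = 0.0147, under 2-fold). IL10 thus passed the adjusted p with opposite signs in dogs 1 and 4, in neither at 2-fold.

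IL6, an inflammatory cytokine that also sustains plasma cells, was dim and rose in dogs 2 and 3. In dog 2 its brighter probe read 7.57, 7.80 and 10.7 on the sensitive and 26.2, 34.5 and 23.1 on the resistant arrays, with 1 of 3 and then 3 of 3 above background (3.64-fold; log2 change 1.86, SE 0.28; adjusted p = 1.14e-05). In dog 3 it read 8.45, 3.54 and 7.68 and then 26.1, 33.2 and 29.1, at least 2.98-fold higher (fitted change 2.14, SE 0.28; adjusted p = 3.96e-06). The phases did not overlap in either dog.

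In dog 4, IL6 read 4.73, 6.58 and 6.29 and then 9.18, 9.51 and 10.7, with 0 of 3 and then 2 of 3 arrays above background (change 0.89; adjusted p = 0.0143, under 2-fold). In dog 1 it read 8.64, 13.4 and 14.2 and then 6.92, 10.9 and 8.89, with overlapping phases (change -0.60; adjusted p = 0.0774). The second IL6 probe was above background on 2 of 24 arrays and changed by 0.50, 0.87, 1.56 and 0.74 in dogs 1 to 4. Both IL6 calls rest on dim signals, at mean log2 levels of -5.10 and -4.88 in the resistant phase, and they ended with normexp correction (0.36 in dog 2, 0.44 in dog 3) and on the raw median signals (0.74 and 0.50), all under 2-fold. CD163, a macrophage scavenger receptor and the single named macrophage marker, changed by 0.53, -0.74 and 0.33 in dogs 1, 2 and 4 without a call. In dog 3 it fell by 1.33 on the log2 scale. The part of macrophage content in the IL6 values was not tested.

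IL3 was above background on 3 arrays in all. In dog 4 its brighter probe read 4.51, 2.42 and 2.75 on the sensitive and 15.9, 15.5 and 10.5 on the resistant arrays, at least 1.67-fold higher (fitted change 2.28, SE 0.36; adjusted p = 5.06e-05). Those 3 resistant arrays are the ones alone on their slide and scan day. IL3 entered the test only through them, so its rise was largely fixed by the filter. The second IL3 probe was not above background on any array and changed by -0.04 there, and the call ended with normexp correction (0.18) and on the raw median signals (0.35).

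In dog 1, IL3 read 4.47, 4.81 and 2.40 and then 7.93, 8.63 and 5.89, none above background. Genes of the cells that respond to IL-3, the mast cell, basophil and eosinophil markers (4 of 7 listed were on the array), were not called in dog 4. In dog 1, 2 of the 4 were called lower and 0 higher, and in dogs 2 and 3 the calls went both ways. FCER1A, the alpha chain of the IgE receptor, fell in dogs 1 to 3 (at least 6.77-fold, then -1.51 and -3.11), as did its beta chain gene MS4A2 (at least 4.16-fold, at least 1.58-fold, and -3.14). CCR3, the eotaxin receptor gene of eosinophils and basophils, rose in dogs 2 and 3 (5.21 and 1.29) and changed by -0.32 in dog 1 without a call. KIT, the stem cell factor receptor gene, fell in dogs 2 and 3 (-1.23 and -1.52) and changed by -0.38 in dog 1 without a call.

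IL2, the growth factor of activated T cells, was faint and level. Its brightest probe was well above background on 23 of 24 arrays, with a lowest signal of 9.02, a median of 17.7 and a highest of 54.6 intensity units. It changed by -0.34, -0.59, -0.50 and -0.17 in dogs 1 to 4 (SE 0.37 each; adjusted p = 0.458, 0.188, 0.311 and 0.754). All 7 pairs of neighbours in the order of its levels overlapped, and the group means spanned 0.88. In dog 3 the array at 54.6 set the difference: without sensitive array 3 the change was 0.05.

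Of the remaining 5 IL2 probes, 4 were above background on scattered arrays and 1 on none. IL2 probe 5 read 72.9 on resistant array 2 of dog 3 and 1.88 and 3.56 on the other two arrays of that group. IL2 probe 4 read 37.7 on sensitive array 2 of dog 2 and 2.02 and 1.53 beside it, and 47.4 on resistant array 3 of dog 3 with 1.79 and 2.39 beside it. These readings did not recur on the other arrays of their group. IL2 probe 2 was above background on 2 of 3 arrays in the resistant phase of dog 1 (48.9 and 29.3, with 1.73 on the remaining array) and of dog 3 (34.0 and 20.8, with 2.58).

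IL4, the signature cytokine of T helper 2 cells and a survival factor of B cells, was likewise scattered. Its brightest probe was above background on 6 arrays, reading 71.5 on sensitive array 1 of dog 3 with 9.67 and 12.5 beside it, and 35.9 on resistant array 2 of dog 1 with 4.08 and 1.69 beside it. The other 2 IL4 probes were above background on 0 arrays. IL13, the neighbour of IL4 in the genome, had no probe that passed either. No change is given for IL4, and at this signal a difference between phases was not detectable.

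**Figure D5:**
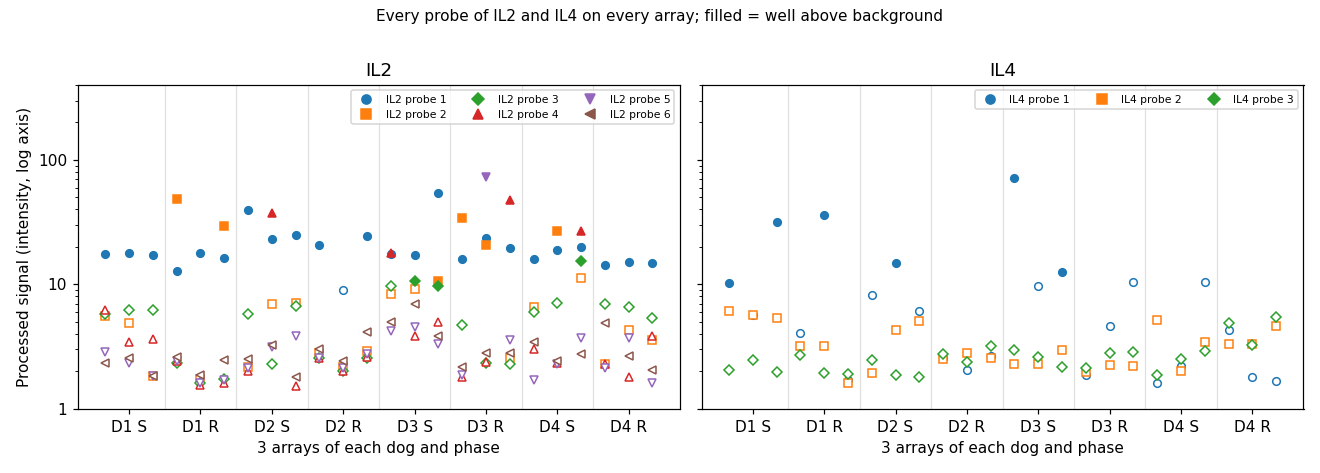
Processed signal (intensity units, log axis) of every IL2 probe (left) and IL4 probe (right) on the 3 arrays of each dog and phase; filled symbols are well above background, and probes are numbered as in the map of detection. IL2 probe 1 lies between 9.02 and 54.6 throughout, while single spots such as 72.9 (IL2 probe 5) and 71.5 (IL4 probe 1) stand apart from the same probe on the neighbouring arrays.

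Across the 4 dogs, with the dog as the replicate and 1 mean for each dog and phase, 0 of the 7 members passed limma's adjusted p, against 0% of all genes, and the lowest adjusted p of any gene was 0.364. The unadjusted p of 2 members, CD40LG and IL2, lay under 0.05, beside 5.78% of all genes. CD40LG was lower in 4 of 4 dogs by a mean of -1.12 (SE 0.35; unadjusted p = 0.0243, adjusted p = 0.764), with arrays apart in 3 of them. In dog 4 the change was -0.06 (SE 0.11), and the second probe changed by 0.29, so the sign there depended on the probe. The CD40LG mean ranged from -1.47 to -0.65 over the alternatives. CD40LG passed (adjusted p = 0.00768; 1 of 7 members, against 6.33% of all genes) when the 24 arrays were fitted with the group as a random block. That fit takes its degrees of freedom from the arrays, so the dog is not the replicate in it. IL2 was lower in 4 of 4 by -0.40 (SE 0.14; unadjusted p = 0.0322, adjusted p = 0.806). It was not called in any dog (SE 0.37 each), and in dog 3 its change was 0.05 without sensitive array 3. Of all genes, 7.01% were lower in all 4 dogs.

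The other means across dogs were -2.30 (SE 1.50) for IL21, -1.68 (SE 1.06) for IFNG, 1.07 (SE 0.49) for IL6, 0.73 (SE 0.44) for IL3 and -0.04 (SE 0.22) for IL10. IL21, IFNG and IL3 were each called in 1 dog, and without dog 2 the means were -0.36 for IL21 and -0.31 for IFNG. The IL6 mean was 1.63 without dog 1, and the IL3 mean was 0.21 without dog 4. With normexp correction and on the raw median signals the means were -1.02 and -1.32 for IL21, -0.37 and -0.66 for IFNG, 0.19 and 0.32 for IL6, and 0.066 and 0.051 for IL3. The change differed between dogs beyond array spread for 6 of the 7 members by limma's dog-by-phase F-test, all but IL2 (adjusted p = 0.868). Of all genes, 78.8% passed that test, so the members' share lies near the background, and for IL21, IFNG and IL3 a difference between dogs was largely fixed by the filter through which they entered.

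Receptors and targets of the members were named on the array in small part. Of 15 receptor genes listed, 3 were present and tested. CD40, the receptor of CD40 ligand, was bright in every group, at a log2 level between 5.37 and 6.04, and changed by 0.35, 0.07, 0.22 and 0.04 in dogs 1 to 4 with no call. IL2RG, the chain shared by the receptors of IL-2, IL-4 and IL-21, changed by 0.34, -0.02, 0.86 and 0.41, also with no call. IL2RA, the high-affinity IL-2 receptor chain, fell in dog 4 (-1.14; adjusted p = 1.62e-13) and changed by -0.55, -0.39 and 0.14 in dogs 1 to 3 without a call. The median change of the 3 receptors was 0.34, -0.02, 0.22 and 0.04. Of 14 signal transducers listed, NFKB1 alone was named, and it was not called in any dog.

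Of 12 listed target genes, 4 were tested. In dog 2, where IFNG fell, the interferon-induced chemokine CXCL10 and the antiviral GTPase gene MX1 fell by 8.40 and 4.33 on the log2 scale (2 of 4 lower). In dog 1, where IFNG was not well above background in either phase, the same 2 genes rose by 2.88 and 3.15. Both genes are known to respond to type I interferons, and the part of IFNG in their values was not tested. SOCS3, the feedback inhibitor of IL-6 signalling, changed by -0.96, 0.58, 0.46 and 0.20 with no call, including dogs 2 and 3 in which IL6 rose.

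Of 18 other cytokine genes listed, 10 were on the array and 8 were tested. In dog 1, 3 of 8 fell: IL1B (at least 2.49-fold), CXCL8 (-1.22) and IL7 (-1.05). In dog 2, 2 of 8 fell: IL18 (-2.71), an inducer of IFNG, and CSF2 (at least 1.67-fold), the gene of GM-CSF. In dogs 3 and 4, 0 of 8 were called. The medians over the 8 were -0.83, -0.62, -0.08 and 0.01, beside -0.06, 0.11, 0.03 and 0.07 for all genes. IL5, the eosinophil cytokine of T helper 2 cells, was above background in every group, unlike its neighbours IL4 and IL13, and was not called (-0.93, 0.37, 0.76 and -0.05). Of 7 listed transcription factors of helper T cell lineages, 0 were on the array under a name.

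Some members lie close together in the genome. IL2 and IL21 are separated by 1 protein-coding gene, ADAD1, in RefSeq's annotation of the dog assembly UU_Cfam_GSD_1.0, and in dog 2 IL21 was at least 85.6-fold lower while IL2 changed by -0.59. IL3 lies next to CSF2 with 0 genes between, and in dog 4 IL3 was at least 1.67-fold higher while CSF2 changed by 0.34 without a call. In dog 2, CSF2 fell while IL3 was not well above background in either phase.

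As a description over the 8 group means, which share dogs in pairs, IL21 and IFNG correlated with each other at r = 0.954. IL21, IFNG and IL3 were above background on all 3 arrays of 1 group each, so their r values and nearest genes rest on that group and on background signal in the other 7. CD40LG and IL2 correlated at r = 0.879. The IL2 group means spanned 0.88 with all 7 pairs of neighbours overlapping, and the highest, dog 3 sensitive, held the array at 54.6. The r values and nearest genes of IL2 rest on these small differences. IL6 was above background on all 3 arrays in 3 groups alone, so its nearest genes rest partly on background signal. Among 717 named genes compared, the closest to CD40LG were CD52, a lymphocyte surface glycoprotein (r = 0.973), CSF2 (0.970) and the potassium channel gene KCNA2 (0.946). The closest to IFNG were the casein gene CSN2 (0.993), the lysosomal protease gene CTSD (0.971) and CD8A (0.964), and to IL21 CSN2 (0.967), GAD1, a glutamate decarboxylase gene (0.957), and IFNG. IL10 was closest to HTR1D (0.959), TUBG1 (0.949) and IDS (0.929), and IL2 to HSD17B14 (0.963), IL12RB2 (0.944) and COL1A1 (0.932). The nearest genes to IL3 were CCL28 (0.903), CYP1A2 (0.896) and AQP1 (0.850), and to IL6 AKT2 (0.865), MCPH1 (0.820) and F9 (0.742), the least close of these sets.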

How the data were processed

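Spot intensity was deposited by the authors as scanner output of Agilent Feature Extraction, whose version the headers and the submitters' processing notes give as 10.7.3.1. Per the file headers, the processed intensity was background-subtracted and detrended within each array and not normalised between arrays. Aspirates were kept in RNAlater and RNA was labelled with Cy3, per the labels' protocols. A genome build is not stated in the headers or labels. The authors' deposited value table was identical to the raw median spot intensity (largest difference 0; column medians 97 to 141), so it is linear and uncentred, and neither scale nor centring stayed unknown.

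Values were log2 of the processed intensity minus each array's 75th percentile. Control spots (1417 of 45220) and outlier spots were left out, no member spot was an outlier, and 0 spots were saturated. A probe was kept if well above background (Feature Extraction's flag) on each of the 3 arrays in some dog and phase (34551 of 43603 probes), and the brightest stood for its gene. Identifiers were matched without versions to a RefSeq table of UU_Cfam_GSD_1.0, for names and gene order alone (832 of 35908 matched). Sequences of the members were not used here.

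limma 3.58.1 in R 4.3.3 was fitted to all 24 arrays in 8 groups (changes within dogs, and the dog-by-phase F-test), and to the 8 means of dog and phase, blocked by dog, since both phases come from 1 animal. Tests were two-sided, with Benjamini-Hochberg adjustment over 27720 genes, and were tested on simulated data. Where no array of a phase had a gene well above background, "at least" folds set the bright phase against the higher of the dim signal and the lowest signal well above background on each array. The number of arrays limits the precision. Replicate numbers did not pair arrays: deviations of same-numbered arrays correlated between -0.13 and 0.09 in 12 pairs.

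The members and gene lists were chosen with earlier results of these data known. All members were named, with up to 4 genes of each pathway list and of the T cell, NK and macrophage lists (those called in most dogs, then by size) and the 3 named genes most like each member by Pearson r. CD4, IL7, IL5, IL13 and the named B cell, stromal, neutrophil, mast cell, basophil and eosinophil markers lie outside that rule and were chosen after their values were seen. Alternatives were median and quantile scaling, normexp correction (offset 50) of the median signal (in place of the mean, which was not used here) with quantile normalisation, the value table, other filters, the mean of probes, slide and replicate blocks, and leaving out each array or dog. The slide as a random block was chosen after seeing the data. Results for a listed target gene are not reported here.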

Additional observations from a re-analysis of the deposited data

Results flagged for a closer look

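Among the 4 dogs, 3 values stood apart by Dixon's ratio, of 21 sets of 4 examined, and chance marks about 1 set in 20. The IL21 change of dog 2 was -8.12 (log2), and the sensitive IFNG level of dog 2 was -2.83 relative to the 75th percentile. Both genes entered the test through the sensitive arrays of dog 2 alone. In the other dogs they were not well above background, except IL21 on 1 sensitive array of dog 4. Both values thus restate the filter and are given as a description. The sensitive IL6 level of dog 1 was -6.07, beside -6.97, -7.02 and -7.05, and dog 1 was the dog whose IL6 was above background on all 3 sensitive arrays.

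The change between phases differed between dogs by limma's F-test for IL21 (adjusted p = 5.72e-13), CD40LG (8.58e-09), IFNG (1.70e-08), IL6 (1.99e-05), IL10 (0.000231) and IL3 (0.00100). The F-test measures differences against the spread between arrays, and 78.8% of all genes passed it. IL21, IFNG and IL3 entered the test through 1 bright group each, so for them the result was largely fixed by the filter.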

How the results depend on the processing

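IL21 and IFNG entered the test through the sensitive arrays of dog 2 alone, so their fall there was largely fixed by the filter. IL21, IFNG and CD40LG in dog 2 and CD40LG in dog 3 kept their direction and their call under every alternative that tested them. The calls of IL6 and IL3 did not. Members called higher in dogs 2, 3 and 4 numbered 0 each with normexp correction and with the authors' value table. The first adds an offset of 50, and the second keeps the background in the signal. Their part in the lost calls was not tested. With probes well above background on all 24 arrays, 2 members were tested, CD40LG and IL10; members called higher in dogs 2, 3 and 4 were then 0, those lower in dog 2 were 1, and those passing the dog-by-phase test were 2.

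In dog 1, IL3 was called higher (1 member) under median scaling (1.01) and quantile normalisation (1.21). It was not well above background in either phase there, and the cause was not tested. CD40LG was called lower there (1 member) with the slide as a block (-1.11) and as a random block (-1.01). Its change in dog 1 ranged from -1.13 to -0.27 over all alternatives. Leaving out 1 array, members called lower in dog 1 ranged from 0 to 1. CD40LG was called at -1.13 without resistant array 3, and IL21 at -1.21 without sensitive array 2 and -1.23 without resistant array 1. Those higher in dog 1 ranged from 0 to 1 (IL3 at 1.01 without sensitive array 2). Those lower in dog 3 ranged from 1 to 2 (IFNG at -1.30 without sensitive array 3). In these dogs IL21, IL3 and IFNG were not well above background on any array. The IL2 change in dog 3 ranged from -0.78 to 0.052. With the mean of both probes, CD40LG in dog 4 was 0.12.

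Across dogs, 1 member passed with the group as a random block (CD40LG), against 6.33% of all genes. In that fit the arrays and not the dogs set the degrees of freedom. The IL10 mean across dogs reversed to 0.048 with median scaling and 0.023 with normexp correction, and ranged from -0.28 to 0.092 when 1 dog was left out; its phases differed by less than its error. The replicate block changed no call: with it, 3 members were lower in dog 2, and the CD40LG change there was -2.16 (adjusted p = 7.84e-11). Median signals of IL2, IL3, IL4 and IL6 near background limit what can be seen of these genes.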
